A study of Mus musculus with 26 samples.

Results

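The 5 mouse genes that carry sites where tagged Nur77 signal rose after lipopolysaccharide (LPS) were followed across the 3 chromatin targets of the series: Tgm2, Slpi, Cd44, Lad1 and Mtmr7, 5 genes of the 49997 in the RefSeq gene table. They were chosen by the HA values themselves, because each holds or lies beside a site with one of the highest HA gains, so the HA change is given as a description only. A site is called gained where it passed the threshold that selected it, and no p-value is given for it. Every called region within 10 kb of a gene's span was taken, with regions of one target merged across libraries where they shared at least 1 bp. That gave 19 HA regions of 42505, 17 RNA polymerase II (Pol II) regions of 46133, and 31 regions of acetylated lysine 27 of histone H3 (H3K27ac) of 77715.

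The cells were RAW264.7, an established mouse macrophage line, as 2 stable lines in which doxycycline switches on either HA-tagged Nur77 or GFP. All groups, controls included, had 50 ng/ml doxycycline for 18 h. The tested groups then had 500 ng/ml LPS, a bacterial cell wall component, for 1 h, and their controls had none. HA was mapped in the Nur77 line only (3 libraries after LPS and 3 untreated), and Pol II and H3K27ac in both lines (2 libraries per line and condition). A set of 4 inputs, 1 per line and condition, complete the 26 libraries. HA samples were fixed in 2 mM DSG for 30 min before formaldehyde, and all other samples, inputs included, in formaldehyde without DSG. No HA library of the GFP line was used here, so signal that does not depend on the tag has no measured level. Each construct is present in 1 line, so construct and line cannot be told apart. The labels name no change to the cells' own Nur77 gene, and nothing in them tells whether replicates are different cultures. P-values therefore measure only the spread between libraries, which may be technical.

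Nur77 is a nuclear receptor of the NR4A group and an early response gene in macrophages. It can bind DNA as a monomer at an octamer known as the NBRE, and it has been studied as a regulator of inflammatory gene expression. H3K27ac marks active promoters and enhancers, and Pol II signal marks transcribing or paused polymerase. Tgm2 encodes transglutaminase 2, which cross-links proteins and acts in the uptake of apoptotic cells. Slpi encodes a secreted inhibitor of serine proteases such as neutrophil elastase. Cd44 is the cell surface receptor for hyaluronan, Lad1 encodes the anchoring filament protein ladinin, and Mtmr7 encodes a phosphatase of the myotubularin family that acts on phosphoinositides.

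Depth was 6.41 to 18.2 M mapped tags in HA libraries, 11.9 to 23.1 M in Pol II libraries and 22.3 to 28.4 M in H3K27ac libraries. Signal is in normalized tags, the authors' tag count of a called region per 10 M mapped tags, and no depth interval can be drawn from it beyond the spread between libraries. Both HA libraries numbered 3 stood apart, with called peaks of 427 bp after LPS and 343 bp untreated, against 827 to 1017 bp in the others. The untreated Pol II library numbered 1 of the Nur77 line has a stated fragment length of 1550 bp, against 174 to 318 bp in the others. As a check of the cell type, all 8 macrophage markers examined had Pol II and H3K27ac in every library. Of 16 markers of T, B, epithelial, fibroblast and neural cells, 3 had a Pol II region and 2 an H3K27ac region in every library. Those with Pol II were the B cell markers Pax5 and Cd79a and the neural marker Gfap, and those with H3K27ac were Cdh1 and Gfap. Mean Pol II tags reached 307 at the B cell markers and ran from 44.5 to 9117 at the macrophage markers. A Pol II region alone thus does not separate the 2 sets.

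The gained sites lie in different places relative to the genes, on mm10. At Tgm2 the site is at chr2:158145058-158146074, inside the gene span (chr2:158116405-158146392) and 0.826 kb from its high-coordinate end. At Slpi (chr2:164354070-164356507, minus strand) the site is at chr2:164356198-164357214 and covers the transcription start. The Cd44 site, chr2:102873017-102874033, is inside the gene (chr2:102811141-102901669, minus strand) and 28.1 kb from its start. The Lad1 site is the only one outside its gene span: it lies at chr1:135815029-135816083, 3.04 kb upstream of the start of Lad1 (chr1:135818598-135833341, plus strand). The genes Tnni1 and Tnnt2 also lie within 10 kb of the Lad1 span, and which gene the site acts on was not tested. Mtmr7 (chr8:40548199-40634935) holds 2 gained sites inside its span, at chr8:40584284-40585301 and chr8:40594887-40595905. The tables used give no strand for Tgm2 or Mtmr7, and exons and introns were not used here.

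At Slpi and Cd44 there was HA signal over the promoter itself. Their 250 bases before the transcription start, from RefSeq on GRCm38.p6 and written 5′ to 3′ on the gene's strand, are shown because the gained site covers the first and a site that did not pass the threshold covers the second. Capitals mark matches to a PU.1 core, GAGGAA, on either strand.
Slpi, chr2:164356508-164356757: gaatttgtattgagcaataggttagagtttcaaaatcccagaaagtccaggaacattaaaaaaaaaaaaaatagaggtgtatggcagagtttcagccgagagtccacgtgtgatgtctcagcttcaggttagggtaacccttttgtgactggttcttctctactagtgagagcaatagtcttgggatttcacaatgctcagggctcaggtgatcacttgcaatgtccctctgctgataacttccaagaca
Cd44, chr2:102901666-102901915: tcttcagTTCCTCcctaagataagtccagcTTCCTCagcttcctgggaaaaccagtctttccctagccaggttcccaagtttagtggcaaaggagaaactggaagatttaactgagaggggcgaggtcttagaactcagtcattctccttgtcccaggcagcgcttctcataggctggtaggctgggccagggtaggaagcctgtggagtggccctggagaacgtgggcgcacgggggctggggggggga

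The motifs were searched on both strands in these windows: the NBRE as AAAGGTCA, AP-1 as TGANTCA, NF-kB as GGG and TTTCC with any 2 bases between and PU.1 as GAGGAA. Among 32851 mouse promoter windows of the same length, 1.34% hold the NBRE letters, 6.75% those of AP-1, 1.41% those of NF-kB and 23.3% those of PU.1. In the Slpi window none of these letters occurs. The Cd44 window holds the PU.1 letters 2 times, starting 243 and 220 bases before the start, and none of the other motifs. The window of Lad1 was searched too and holds none of them. The letters under the gained peaks themselves were not examined.

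HA-Nur77 signal was several times higher after LPS at 1 site of each gene, and at a further site of Mtmr7 it was higher by a smaller amount. Of the 19 HA regions, 10 had a peak in all 6 libraries and 6 of these 10 passed an FDR of 0.05 upward in the limma fit across all regions, against 3.28% of 11234. That share is what chose the genes, so nothing is read from it. None passed when either library numbered 1 was left out, and 5 passed without any one of the other libraries. The 5 sites with the highest gain ranked 3, 5, 6, 9 and 10 by log2 change among the 11234 regions. Their ratio of LPS to untreated tags ran from 4.69 to 7.93 over the 15 same-numbered library pairs.

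The Lad1 site had the highest signal: 509, 382.1 and 207.4 normalized tags after LPS, against 74.8, 53.0 and 29.9 untreated (log2 change 2.70 ± 0.26 SE). Every LPS library was above every untreated one, and the lowest values of both conditions came from the libraries numbered 3. The larger Mtmr7 site followed the same order, with 362.5, 311.9 and 142.8 tags after LPS, against 55.3, 43.7 and 20.3 untreated (2.67 ± 0.25). The groups did not overlap there either.

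In Tgm2 the gained site had 306, 245 and 165 tags after LPS, against 50.7, 30.9 and 24.7 untreated (2.66 ± 0.29). At the Slpi promoter the values were 279.1, 166.9 and 118.4 tags after LPS, against 54.6, 30.9 and 21.0 untreated (2.31 ± 0.30). The intragenic Cd44 site had 161, 200 and 70.7 tags after LPS, against 34.3, 35.4 and 11.8 untreated (2.31 ± 0.27). At each of these 3 sites the lowest LPS library was above the highest untreated one.

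The second Mtmr7 site was the member closest to the threshold on its inner side, with 96.4, 116.2 and 45.8 tags after LPS, against 53.0, 44.2 and 17.0 untreated (log2 change 1.12 ± 0.26). Here the groups overlapped, since the LPS library numbered 3 was below 1 untreated library. Just outside the threshold was the Cd44 promoter site, with 82.7, 64.4 and 30.1 tags after LPS, against 44.4, 30.4 and 14.8 untreated (0.90 ± 0.26). Its same-numbered ratios were 1.86, 2.12 and 2.03. Another Mtmr7 site, at chr8:40611827-40612789, had no untreated value to compare with: it was called in all 3 LPS libraries, at 31.9, 27.7 and 22.5 tags, and in no untreated library.

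**Figure D1:**
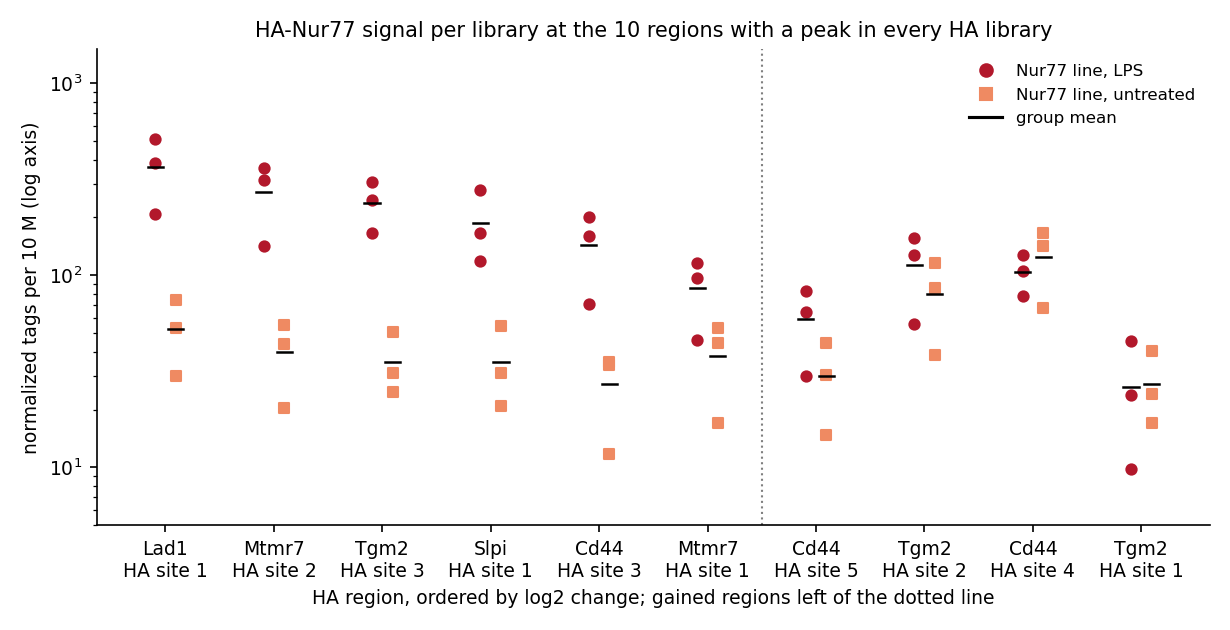
HA normalized tags per 10 M mapped tags (log axis) at the 10 HA regions with a peak in every HA library, LPS left of untreated in the Nur77 line, with a point per library and a bar at the group mean. At Lad1 site 1 the 3 LPS libraries lie between 207.4 and 509 tags and the untreated ones between 29.9 and 74.8; at Tgm2 site 1 and Cd44 site 4, right of the dotted line, the conditions overlap.

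Other HA sites of the same genes had smaller changes or none of a fixed sign. In Tgm2, the HA site 13.1 kb from the high-coordinate end had 127.6, 156.1 and 55.9 tags after LPS, against 85.7, 116.4 and 38.4 untreated (0.43 ± 0.27), and the one 24.6 kb from that end had 23.9, 45.3 and 9.86, against 24.2, 40.3 and 17.0 (-0.28 ± 0.33). In Cd44, the site 6.76 kb inside the start had 126.9, 105.4 and 78.1 tags after LPS, against 166, 141.4 and 67.5 untreated (-0.28 ± 0.26). LPS and untreated values overlapped at all 3 of these sites. Within same-numbered pairs, the ratio of LPS to untreated tags at the first Tgm2 site named was above 1 in each pair (1.49, 1.34 and 1.46), and at the other two it was above 1 in 1 pair of 3. With the replicate number as a block, 8 of the 10 sites passed upward, that Tgm2 site and the Cd44 promoter site among them, where 20.4% of all HA regions did. The remaining 8 HA regions besides that Mtmr7 site had a peak in 1 to 3 of 6 libraries, at 9.22 to 29.1 tags. No HA region of the 5 genes lay over an input peak or input region, and the nearest HA regions outside the 10 kb limit were 15.5 to 26.2 kb from the spans. The inputs were fixed without DSG, unlike the HA samples, so they are not matched controls for HA.

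Pol II summed over the regions that hold gained sites of Tgm2, Slpi, Cd44 and Mtmr7 was higher after LPS in both lines. At Cd44 the region spans the whole gene and other HA sites, so its sum does not measure Pol II at the gained site. Of 17 Pol II regions, 5 had a peak in all 8 libraries and could be tested. In the Nur77 line 4 of 5 were higher after LPS, against 15.2% of 17081 regions tested, and in the GFP line 4 of 5 were higher, against 10.0%. The median log2 change over the 5 was 3.78 in the Nur77 line and 3.61 in the GFP line, against 0.01 over all regions in each line. In bulk chromatin, signal in fewer cells and less signal per cell cannot be told apart. Tests used limma on log2 of the summed tags plus 1, after scaling of libraries by trimmed means, with Benjamini-Hochberg adjustment over all regions. Without scaling, the median of all regions moves to -0.40 in the Nur77 line and -0.15 in the GFP line for Pol II, and to -0.33 and -0.32 for H3K27ac.

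Over Tgm2, the Pol II region that holds the gained HA site also holds the site 13.1 kb from the high-coordinate end. Its tags cannot be assigned to either site alone. The region had 487.6 and 672.2 tags after LPS, against 8.19 and 44.1 untreated, in the Nur77 line. It had 469.22 and 457.32 tags after LPS, against 47.5 and 55.12 untreated, in the GFP line. LPS libraries were above untreated ones in both lines, and the lowest value came from the untreated library with the long stated fragment. The log2 change was 5.21 ± 0.65 (adjusted p = 0.00124) in the Nur77 line and 3.31 ± 0.65 (adjusted p = 0.0116) in the GFP line. Without that untreated library the change in the Nur77 line was 3.99 ± 0.28 (adjusted p = 0.00176), and without the untreated library numbered 2 it was 6.42. Without the GFP LPS library numbered 1, the GFP change was 3.25 with an adjusted p of 0.0616, short of the threshold.

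Called Pol II over Tgm2 also became longer, at 7.34 and 14.6 kb after LPS, against 0.501 and 2.24 kb untreated, in the Nur77 line, and 10.9 and 10.7 kb, against 1.85 and 2.79 kb, in the GFP line. Per kb of called region the means were 56.2 tags after LPS and 18.0 untreated in the Nur77 line, and 42.9 and 22.7 in the GFP line. Per base the log2 change was 1.73 (adjusted p = 0.00103) in the Nur77 line and 1.07 (adjusted p = 0.0237) in the GFP line. Another Tgm2 Pol II region, over the HA site 24.6 kb from the high-coordinate end, had log2 changes of 0.20 ± 0.47 in the Nur77 line and 0.16 ± 0.47 in the GFP line, neither past the threshold.

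Slpi carried a single Pol II region that covers the whole short gene. It had 403.1 and 306.3 tags after LPS, against 30.8 and 35.3 untreated, in the Nur77 line, and 188.8 and 153.1 tags, against 10.1 and 10.0, in the GFP line. The 4 groups did not overlap, and each Nur77 group was above the GFP group of the same treatment. After LPS the region was 5.13 and 5.11 kb long in the Nur77 line, against 1.26 and 1.02 kb untreated, and 5.13 and 4.86 kb in the GFP line, against 0.501 and 0.501 kb. Mean tags per kb were 69.2 after LPS and 29.6 untreated in the Nur77 line, and 34.1 and 20.1 in the GFP line. The log2 change with LPS was 3.78 ± 0.30 (adjusted p = 2.06e-04) in the Nur77 line and 4.11 ± 0.30 (adjusted p = 2.55e-04) in the GFP line.

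**Figure D2:**
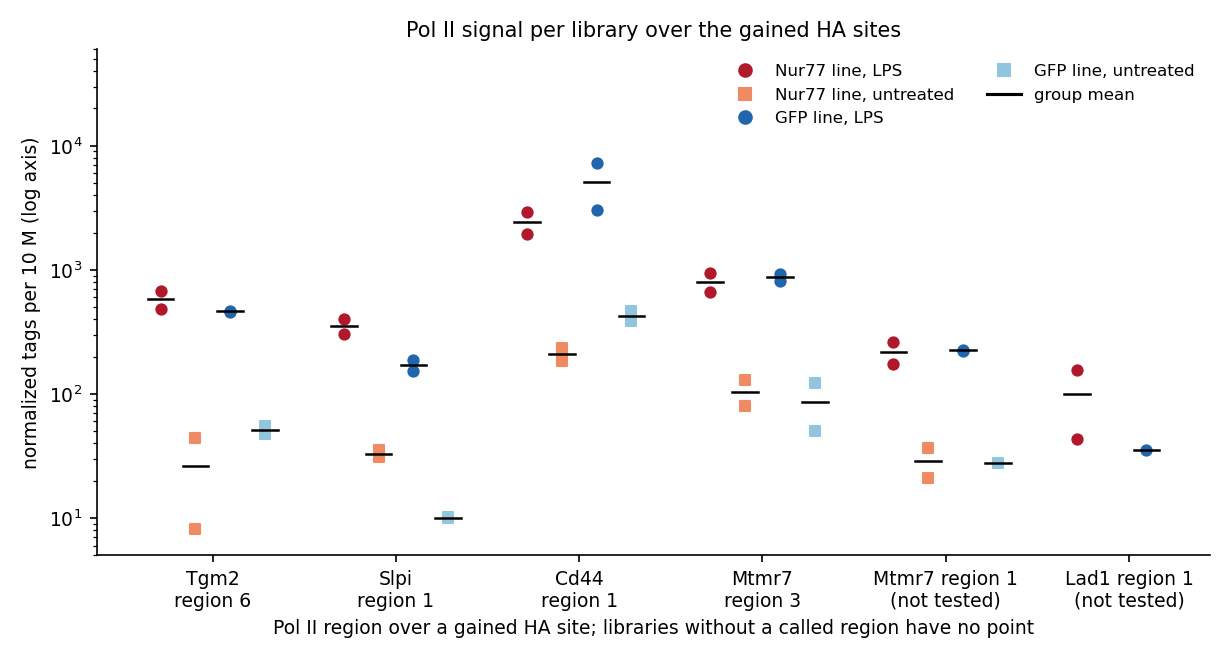
Pol II normalized tags per 10 M mapped tags (log axis) in the regions over gained HA sites, with a point per library, a bar at the group mean and groups in the order Nur77 line LPS and untreated, GFP line LPS and untreated. LPS points lie above untreated points of the same line in every region that has both, and at Slpi the Nur77 points (306.3 and 403.1 tags after LPS) lie above the GFP points (153.1 and 188.8).

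At Cd44, tags summed over the locus rose in both lines, while tags per base of called length did not. The region, 97.8 kb long after merging and over a region also called in input, had 1939.41 and 2927.09 tags after LPS, against 185.7 and 232.55 untreated, in the Nur77 line. In the GFP line it had 7224 and 3053.53 tags after LPS, against 465.4 and 384.8 untreated. All 4 LPS libraries were above all 4 untreated ones, and the GFP LPS library numbered 1 was far above the others. Log2 changes of the sum were 3.92 ± 0.42 (adjusted p = 6.92e-04) in the Nur77 line and 3.63 ± 0.42 (adjusted p = 0.00136) in the GFP line. Leaving out GFP LPS library 1 gave 2.96 in the GFP line, and leaving out GFP LPS library 2 gave 4.30.

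The length under called Pol II at Cd44 was larger after LPS in both lines. In the Nur77 line 34.3 and 91.5% of the Cd44 span was under called Pol II after LPS, against 2.13 and 4.57% untreated, and in the GFP line 100 and 84.1%, against 7.66 and 6.72%. Tags per kb of called region averaged 44.0 after LPS and 58.3 untreated in the Nur77 line, and 55.8 and 60.8 in the GFP line. The log2 change per base of called length was -0.27 (adjusted p = 0.675) in the Nur77 line and -0.03 (adjusted p = 0.975) in the GFP line, opposite in sign to that of the sum. Mean called length was 61.6 kb after LPS and 3.71 kb untreated in the Nur77 line, and 89.4 and 6.97 kb in the GFP line. Values per base thus compare unlike stretches of the gene, and they do not show that density over a fixed stretch was unchanged. The number of pieces into which Cd44 was called also differed between LPS libraries, from 1 in GFP library 1 to 22 in Nur77 library 1.

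The Pol II region over the larger Mtmr7 site had 658.7 and 951.8 tags after LPS, against 80.0 and 128.9 untreated, in the Nur77 line. In the GFP line it had 814.6 and 926.9 tags, against 50.1 and 123.2. LPS and untreated libraries did not overlap in either line, and the lines overlapped within each treatment. The change was 3.36 ± 0.40 (adjusted p = 0.00108) in the Nur77 line and 3.61 ± 0.40 (adjusted p = 0.00118) in the GFP line. Mean tags per kb were 104 after LPS and 34.9 untreated in the Nur77 line, and 111 and 30.5 in the GFP line, with 7.69 and 3.07 kb covered in the Nur77 line and 7.86 and 2.71 kb in the GFP line. Over the smaller Mtmr7 site, Pol II had 173.9 and 261.1 tags after LPS, against 21.06 and 36.9 untreated, in the Nur77 line. The GFP line had 225.2 and 223.8 tags there after LPS, and untreated it had 27.6 tags in 1 library and no region in the other, so this region was not tested.

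Lad1 differed from the other genes: Pol II was found at its upstream site and hardly over the gene. At the upstream site the Nur77 line had 43.1 and 156.4 tags after LPS and no called region untreated. The GFP line had 35.0 tags in 1 of 2 LPS libraries and no called region in the other LPS library or in the untreated ones. Inside the Lad1 span a Pol II region was called in 1 of 8 libraries, the Nur77 LPS library numbered 2, at 6.70 tags over 3.40% of the span. Under Mtmr7, by comparison, 12.0 and 15.1% of the span was under Pol II after LPS in the Nur77 line, against 4.99 and 4.50% untreated, and 16.0 and 14.2% in the GFP line, against 2.40 and 4.93%. Slpi was wholly covered in all 4 LPS libraries, against 21.4 to 25.7% of its span untreated in the Nur77 line and 15.7 to 17.7% in the GFP line.

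**Figure D3:**
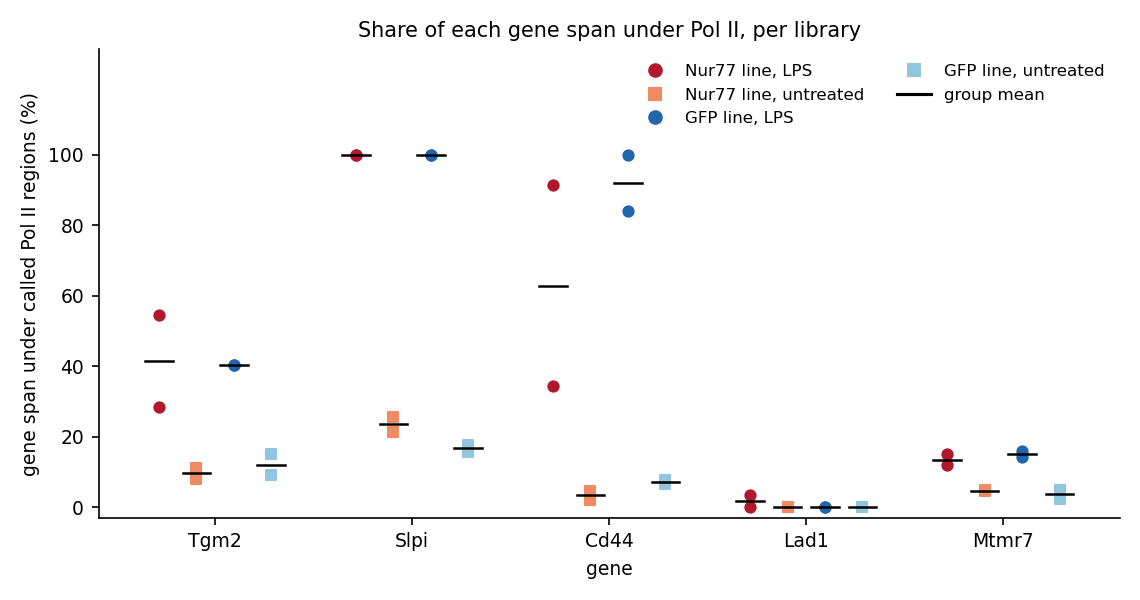
Percent of each gene's span under called Pol II regions, with a point per library, a bar at the group mean and groups in the order Nur77 line LPS and untreated, GFP line LPS and untreated. Slpi reaches 100% in all LPS libraries, Cd44 lies between 34.3 and 100% after LPS and between 2.13 and 7.66% untreated, and Lad1 is at 0 in 7 of 8 libraries.

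The 2 lines were then compared within a treatment. None of the 5 Pol II regions differed between the Nur77 and the GFP line at an FDR of 0.05, untreated (0.170% of all regions did, in either direction) or after LPS (1.52%). Nor did the LPS response differ between lines at any of the 5, or at any region tested (0.00%). The Slpi region came closest, with a log2 difference of 1.12 ± 0.30 after LPS (adjusted p = 0.107, interval of ± 2 SE from 0.53 to 1.71) and 1.45 ± 0.30 untreated (adjusted p = 0.131). With the replicate number as a block, an alternative, the Slpi region passed in both treatments. In that fit 5.98% of all regions differed untreated and 12.8% after LPS. For the Tgm2 region the difference in response was 1.89 ± 0.92, with an interval from 0.06 to 3.73 and an adjusted p of 1.00. It was 0.68 without the untreated Nur77 library numbered 1.

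H3K27ac summed over the regions that hold gained sites was higher after LPS in both lines, wherever it could be tested. These regions can be much longer than the HA site, as at Cd44 (11.7 kb after merging, against 1.02 kb). Their sums do not measure H3K27ac at the site itself. Of 31 H3K27ac regions at the 5 genes, 13 had a region in all 8 libraries, 7 of them at Cd44. In the Nur77 line 8 of 13 were higher after LPS and 1 was lower, against 28.5% higher and 27.1% lower of 27094 regions. In the GFP line 8 of 13 were higher and 0 lower, against 27.5% and 25.5%. The 5 tested regions over a gained HA site were among those higher in both lines, with median log2 changes of 2.53 in the Nur77 line and 2.32 in the GFP line. Of the other 8, 3 were higher in both lines, with medians of 0.15 and 0.16 over the 8. Those 3 include the regions over the Cd44 promoter HA site and the Tgm2 HA site 13.1 kb from the high-coordinate end. These HA sites passed upward only with the replicate number as a block, so the split depends on the fit.

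Over all HA regions with a peak in every library, 29.5% lay over an H3K27ac region that was higher after LPS in the Nur77 line and 30.2% over one higher in the GFP line. For the 369 HA regions that rose, these shares were 68.8% and 70.2%. The same shares for Pol II regions higher after LPS were 12.4% and 9.07% of all HA regions, and 31.2% and 29.3% of those that rose. Only regions with a peak in every library could count as higher. Such Pol II regions lay under 53.2% of all HA regions and 39.3% of those that rose, and such H3K27ac regions under 78.2% and 74.0%. Of the 145 risen HA regions over a tested Pol II region, 115 lay over one higher in the Nur77 line and 108 over one higher in the GFP line. Of all 5975, 1388 and 1019 did. Rising H3K27ac was thus common under gained HA sites in each line taken alone, and the 5 genes are not particular in this. The share over regions higher in both lines at once was not counted.

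At the Tgm2 site H3K27ac before LPS was low and similar in both lines. It had 75.0 and 96.1 tags after LPS, against 16.2 and 17.0 untreated, in the Nur77 line, and 68.2 and 66.5 tags, against 12.5 and 18.8, in the GFP line. LPS and untreated libraries were well apart, and the untreated groups of the lines overlapped. After LPS both Nur77 libraries were above both GFP libraries, but the difference between lines did not pass the threshold. The log2 change was 2.64 ± 0.21 (adjusted p = 8.88e-07) in the Nur77 line and 2.39 ± 0.21 (adjusted p = 2.11e-06) in the GFP line, over 2.21 kb after LPS and 0.891 kb untreated in the Nur77 line and 1.92 and 0.917 kb in the GFP line. Mean tags per kb were 38.5 after LPS and 19.0 untreated in the Nur77 line, and 35.0 and 17.0 in the GFP line.

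The strongest H3K27ac region of Tgm2 was another one, over the HA site 13.1 kb from the high-coordinate end that was not gained. It had 78.4 and 108.9 tags after LPS, against 97.3 and 81.9 untreated, in the Nur77 line, and 114.6 and 107.2 tags, against 104.5 and 110.1, in the GFP line. Treated and untreated values overlapped in both lines. After scaling it had log2 changes of 0.41 ± 0.14 (adjusted p = 0.0236) and 0.38 ± 0.14 (adjusted p = 0.0334), and unscaled 0.05 in each line, so the call rests on the scaling. Leaving out any 1 of the 4 GFP libraries ended the call in the GFP line, and leaving out either Nur77 library numbered 2 ended it in the Nur77 line, with adjusted p-values between 0.068 and 0.247.

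Among the 13 tested regions, the Slpi promoter region was the one with more H3K27ac in the Nur77 line than in the GFP line. Its promoter region had 122.5 and 121.7 tags after LPS, against 27.7 and 22.6 untreated, in the Nur77 line. In the GFP line it had 51.1 and 63.4 tags after LPS, against 17.3 and 12.5 untreated. All 4 groups were apart, with the Nur77 line above the GFP line under both treatments. The LPS change was 2.59 ± 0.21 (adjusted p = 1.14e-06) in the Nur77 line and 2.20 ± 0.21 (adjusted p = 4.65e-06) in the GFP line.

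Between the lines the Slpi difference was 1.15 ± 0.21 after LPS (adjusted p = 0.00147) and 0.75 ± 0.21 untreated (adjusted p = 0.0191). The untreated difference did not pass without the GFP library numbered 2 (0.50, adjusted p = 0.149) or the Nur77 library numbered 1 (0.63, adjusted p = 0.126). The region was 2.77 kb long after LPS and 1.30 kb untreated in the Nur77 line, and 1.96 and 1.11 kb in the GFP line, and per base the differences were 0.67 (adjusted p = 0.00791) after LPS and 0.56 (adjusted p = 0.0224) untreated. The LPS response did not differ detectably between lines (0.39 ± 0.30, adjusted p = 0.644, interval from -0.21 to 1.00).

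**Figure D4:**
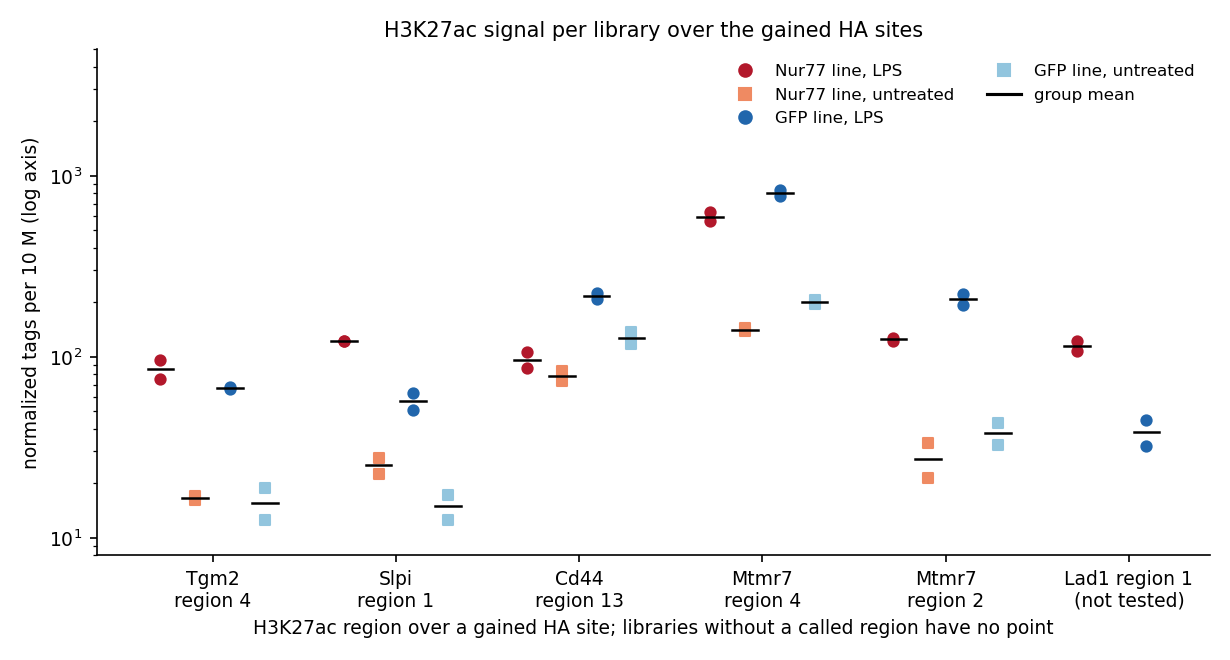
H3K27ac normalized tags per 10 M mapped tags (log axis) in the regions over gained HA sites, with a point per library, a bar at the group mean and groups in the order Nur77 line LPS and untreated, GFP line LPS and untreated. At Slpi the Nur77 points (121.7 and 122.5 tags after LPS) are above the GFP points (51.1 and 63.4), at Cd44 and Mtmr7 after LPS they are below them, and at Lad1 only LPS libraries have a region.

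In the region over the intragenic Cd44 site, H3K27ac changed less with LPS than in the tested regions over the other gained sites. The region, which also lies over a region called in input, had 86.4 and 106.46 tags after LPS, against 83.19 and 73.64 untreated, in the Nur77 line. In the GFP line it had 209.2 and 226.3 tags, against 118.11 and 137.16. Each LPS value was above the untreated values of its line, by a small margin in the Nur77 line. The log2 change was 0.65 ± 0.11 (adjusted p = 4.20e-04) in the Nur77 line, though 0.29 (adjusted p = 0.0724) without scaling, and 1.10 ± 0.11 (adjusted p = 6.61e-06) in the GFP line.

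The Cd44 promoter region was the strongest of that gene and rose in both lines. It had 627.9 and 684.7 tags after LPS, against 371.2 and 349.4 untreated, in the Nur77 line, and 946 and 925.2 tags, against 464.5 and 493.1, in the GFP line. The log2 change was 1.22 ± 0.06 (adjusted p = 1.88e-08) in the Nur77 line and 1.30 ± 0.06 (adjusted p = 1.07e-08) in the GFP line, with 84.9 tags per kb after LPS and 44.8 untreated in the Nur77 line and 96.9 and 51.7 in the GFP line. Among the other 5 tested Cd44 regions, 1 rose in both lines, centred 71.4 kb from the start (2.94 ± 0.31, adjusted p = 8.62e-06, in the Nur77 line and 1.91 ± 0.31, adjusted p = 2.87e-04, in the GFP line). Its called length was 3.55 kb after LPS and 0.673 kb untreated in the Nur77 line, and 6.12 and 2.83 kb in the GFP line, and per base it changed by 0.61 (adjusted p = 0.00269) and 0.52 (adjusted p = 0.00792). Another, 37.2 kb from the start, fell by 0.70 in the Nur77 line (adjusted p = 0.0155), a call lost without the LPS library numbered 1 (adjusted p = 0.149) or the untreated library numbered 1 (adjusted p = 0.097). Per base its change in the Nur77 line was -0.12 (adjusted p = 0.510).

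At Mtmr7 both gained sites lay in H3K27ac regions that rose with LPS in both lines. The larger site's region had 559.8 and 629.7 tags after LPS, against 138.6 and 144.2 untreated, in the Nur77 line, and 837.1 and 773 tags, against 196.9 and 206.7, in the GFP line. The 4 groups did not overlap, with the GFP line above the Nur77 line. Its log2 change was 2.42 ± 0.07 (adjusted p = 1.36e-09) in the Nur77 line and 2.32 ± 0.07 (adjusted p = 1.45e-09) in the GFP line, with 93.9 tags per kb after LPS and 37.0 untreated in the Nur77 line and 123.2 and 38.7 in the GFP line. For the smaller site the changes were 2.53 ± 0.20 and 2.77 ± 0.20. At the Mtmr7 site called after LPS only, H3K27ac was called at 6.94 and 7.11 tags in the Nur77 LPS libraries and 17.8 and 10.2 tags in the GFP LPS libraries, and in no untreated library.

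Upstream of Lad1, H3K27ac was called after LPS only. The region had 107 and 122.1 tags in the Nur77 line after LPS, over 5.05 and 3.85 kb, and 44.8 and 32.26 tags in the GFP line after LPS, over 2.82 and 2.25 kb. Both Nur77 libraries were above both GFP libraries, and none of the 4 untreated libraries had a region there. Because it lacked untreated values, it was left out of the tests above. When libraries without a region were given their smallest called value, the difference between the lines after LPS was 1.62 ± 0.28 (adjusted p = 0.0025), where 6.76% of all 77715 regions were higher in the Nur77 line. Over the Lad1 span itself no H3K27ac region was called in any of the 8 libraries.

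**Figure D5:**
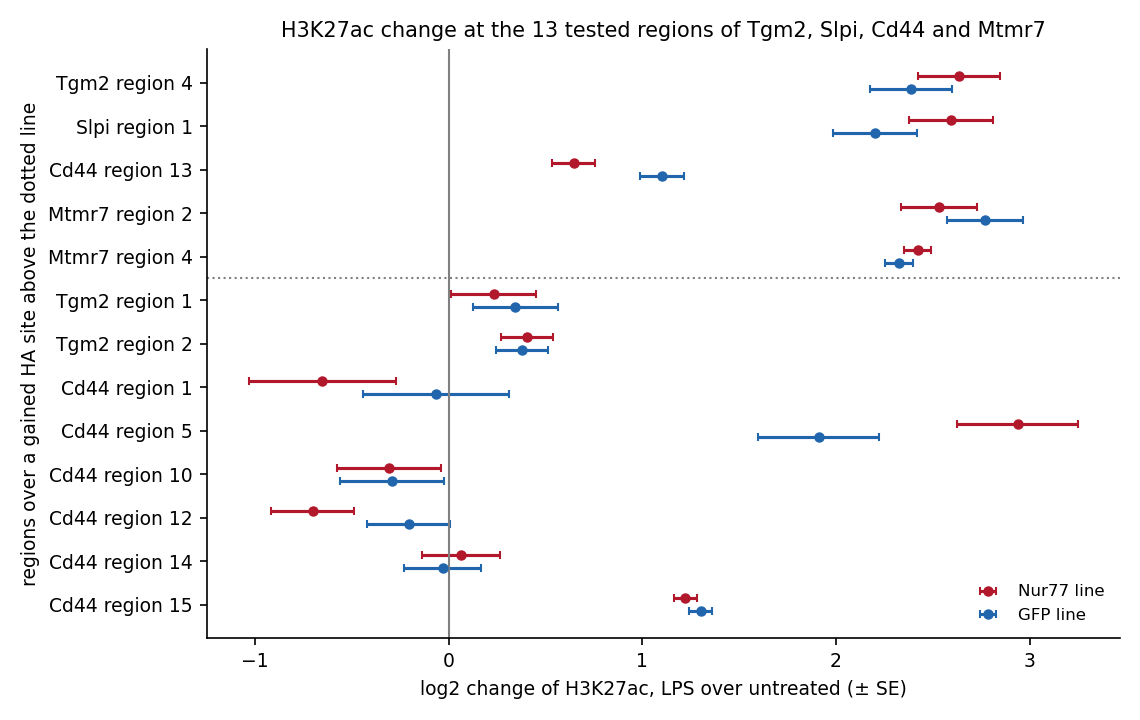
Log2 change of H3K27ac with LPS (± SE from limma, 2 libraries per group) at the 13 tested regions, Nur77 line above GFP line in each row, with the 5 regions over gained HA sites above the dotted line. Those 5 lie between 0.65 and 2.64 in the Nur77 line and between 1.10 and 2.77 in the GFP line, and the other 8 between -0.70 and 2.94 and between -0.29 and 1.91.

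Between lines, most of the 13 tested H3K27ac regions that differed were lower in the Nur77 line. After LPS 1 of 13 was higher in the Nur77 line, against 16.5% of all regions, and 7 were lower, against 19.5%. Untreated, 1 was higher (15.4%) and 5 were lower (15.3%). Those lower after LPS all lay at Cd44 and Mtmr7, and Cd44 alone holds 7 of the 13. The 13 are thus not independent, and these counts describe few genes. After LPS the groups also differ in peak calling: 1 GFP library was called with a local filter and neither Nur77 library was. The region over the gained Cd44 site differed by -1.12 ± 0.11 after LPS (adjusted p = 1.79e-05), and the one over the larger Mtmr7 site by -0.38 ± 0.07 (adjusted p = 0.0014). Differences of the same sign were found at Cd44 regions over no gained site, such as the promoter region (-0.45 ± 0.06, adjusted p = 1.06e-04) and the region 86.9 kb from the start (-2.34 ± 0.38, adjusted p = 5.56e-04).

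Called length differed between lines too. At the gained Cd44 site the region covered 4.73 kb after LPS and 5.99 kb untreated in the Nur77 line, and 10.2 and 8.27 kb in the GFP line. Tags per kb were close, at 20.3 after LPS and 13.1 untreated in the Nur77 line and 21.6 and 15.4 in the GFP line. Per base, 1 of the 13 regions differed between lines after LPS (16.9% of all did) and 1 untreated (14.2%), in both cases the Slpi promoter. The region 86.9 kb inside Cd44 moved to -3.12 after LPS without the Nur77 LPS library numbered 2 and to -1.57 without the one numbered 1. After LPS the calls of 3 regions were lost on leaving out 1 library: the Cd44 regions 71.4 kb and 37.2 kb from the start and the smaller Mtmr7 region, with adjusted p-values from 0.062 to 0.274. None of the 13 differed between lines in its LPS response, where 0.594% of all regions did.

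Pol II at other genes of the same families was examined for context, with each gene represented by its strongest tested region and the lists chosen with results of these data known. Over all regions tested, 15.2% were higher and 15.0% lower after LPS in the Nur77 line, and 10.0% were higher and 8.55% lower in the GFP line. Of 13 myotubularin genes other than Mtmr7, 2 rose in both lines and none fell, a share of risers close to that of all regions in the Nur77 line, and the list's median log2 change was 0.34 in the Nur77 line and 0.16 in the GFP line. They were Mtmr14 (1.97 ± 0.20 in the Nur77 line and 1.91 ± 0.20 in the GFP line) and Mtmr6 (1.34 ± 0.21 and 1.13 ± 0.21). Among hyaluronan and CD44 partner genes, 3 of 14 tested rose and 2 fell in each line, with medians of -0.19 and 0.04. Spp1, which encodes the CD44 ligand osteopontin, rose by 2.25 ± 0.23 in the Nur77 line and 1.93 ± 0.23 in the GFP line. Has1, a hyaluronan synthase gene, and Msn, which encodes the linker protein moesin, rose too. Hyal1 and Hyal3, the hyaluronidase genes that fell, share 1 region, so this is a single measurement.

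Of transglutaminase and apoptotic cell uptake genes, 9 had a tested Pol II region, and 2 rose in the Nur77 line and 1 in the GFP line, with medians of -0.54 and -0.13. Itgav, an integrin subunit gene, rose in both lines (1.81 ± 0.22 in the Nur77 line and 1.39 ± 0.22 in the GFP line). The scavenger receptor gene Cd36 rose in the Nur77 line (1.13 ± 0.23) and had -0.05 ± 0.23 in the GFP line, and the difference in response did not pass the test (1.18 ± 0.32, adjusted p = 1.00). Among 8 protease inhibitor genes with a tested region, 3 rose in the Nur77 line and 2 in the GFP line and 1 fell in each, with medians of 0.57 and 0.62. Wfdc17, a relative of Slpi, had 3.63 ± 0.62 in the Nur77 line and 2.41 ± 0.62 in the GFP line, in a region that also covers Wfdc18. Cst3, the cystatin C gene, had -1.90 ± 0.38 in the Nur77 line and -1.74 ± 0.38 in the GFP line. Of 6 basement membrane anchoring genes with a tested region, Plec, which encodes plectin, rose in both lines (1.44 ± 0.28 and 2.17 ± 0.28), 3 fell in the Nur77 line and 1 in the GFP line, with medians of -0.89 and -0.65.

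By its Pol II profile over the 8 libraries, each tested member resembled many genes. For Tgm2 the most similar regions lay over Cggbp1 (Pearson r = 0.990), Necap2 and Mrpl39, and for Slpi over Arntl (r = 0.996), Jade2 and Prkcd. Cd44 was closest to 2310043L19Rik (r = 0.995), Zcchc2 and Kcnk13, and Mtmr7 to Hdgf (r = 0.995), Pde4b and Larp4b. The number of regions above an r of 0.95 was 147 for Tgm2, 465 for Slpi, 288 for Cd44 and 480 for Mtmr7. These correlations are over 8 libraries that fall into treated and untreated sets, and they are descriptions only.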

How the data were processed

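ChIP-seq of HA, Pol II and H3K27ac was done on RAW264.7 macrophages, with HA samples fixed in 2 mM DSG for 30 min before 1% formaldehyde for 10 min, per the labels' protocols. Reads were aligned with HISAT2 2.1.0 to mm10 and peaks were called with HOMER, per the submitters' processing notes and the file headers. The deposited signal values are the authors' normalized tag counts per 10 M mapped tags of each called peak, per the file headers, with no input used in calling. The deposited fold enrichment of a peak over its surroundings, also from the authors, described peaks only. Of the H3K27ac libraries, 3 were called with a local filter that the other 5 did not have, per the file headers. The 3 were those numbered 1 of the GFP LPS, GFP untreated and Nur77 untreated groups, and neither Nur77 LPS library had the filter. In H3K27ac comparisons with the Nur77 LPS group, this setting and the group can thus not be fully told apart.

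Peaks of a target were merged across libraries where they shared 1 bp, and tags were summed per region. Regions with a peak in every library were tested with limma 3.58.1 (R 4.3.3) on log2 of tags plus 1, scaled by trimmed means (30% of ratios, 5% of levels), with Benjamini-Hochberg adjustment over all regions of the target and an FDR of 0.05. All groups of a target shared one variance. The script was tested on simulated data. Gene spans and promoters are RefSeq on GRCm38.p6. Members, lists and tests were chosen with earlier results of these data known. Full values are given for each gained HA site, for HA sites called after LPS only and for the strongest region over each gene. Each member's most similar Pol II profiles were ranked by Pearson correlation. Same-numbered HA libraries deviated together (correlations 0.48, 0.83 and 0.69), so the numbers pair the HA libraries, although no label names a shared batch. The fit that defined the gained sites, and its SEs, left this pairing out. With the number as a block, 8 of the 10 tested HA sites passed upward, as did 20.4% of all HA regions, against 3.28% of all without it. Alternatives were the replicate number as a block, no scaling, tags per base, a pseudocount of 10, no filter, an FDR of 0.01, regions away from input, a 1 kb limit, and leaving out each library. For tags per base, the divisor was the length that each library had called in the region, which differs between libraries. A gene of the protease inhibitor list is counted but its values are not reported here.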

Additional observations from a re-analysis of the deposited data

How the results depend on the processing

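Of 928 recomputed values of single regions, 866 kept their direction and their side of the threshold (for HA, stayed within the spread), 30 no longer passed, 3 newly passed and 28 changed sign. The HA change at the gained Cd44 site moved to 1.98 with a pseudocount of 10. The number of HA sites that passed was 6, and 3 without scaling, 0 to 5 with 1 library left out (0 without either library numbered 1), and 0 without both libraries numbered 3, an alternative chosen after seeing the data. With the replicate number as a block it was 8, as given above, and the same block gave 1 Pol II region that differed between lines untreated and 1 after LPS, where 0 did without it. Both are Slpi, with adjusted p-values of 0.0223 untreated and 0.0283 after LPS. With this block 5.98% of all 17081 Pol II regions differed between lines untreated and 12.8% after LPS. Same-numbered Pol II libraries had correlated deviations (0.35 to 0.63) but only 2 numbers, and H3K27ac libraries did not (-0.10 to 0.09), so those numbers are not taken as pairs. Without the filter on regions, where uncalled libraries take their smallest called value and more regions enter, 17 H3K27ac regions passed in the Nur77 line, against 9, and 16 in the GFP line, against 8. In each line 1 of these had no peak in any library of that line, so the value compares filled-in levels only, and 3 in the Nur77 line and 4 in the GFP line had a single peak; these counts are not read as LPS changes. Over all 77715 regions, the fit without the filter called 43.3% in the Nur77 line and 30.8% in the GFP line. Between lines, tags per base gave 1 H3K27ac call untreated, against 6, and 1 after LPS, against 8, and an FDR of 0.01 gave 5 after LPS. Over all regions, 14.2% differed per base untreated and 16.9% after LPS, and 23.1% differed after LPS at an FDR of 0.01. The cause of these changes was not tested.

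Tags per base of called length, which compare unlike stretches, reversed the sign of the LPS change of Pol II at Cd44 (-0.27 in the Nur77 line, -0.030 in the GFP line). They also reversed H3K27ac line differences at the larger Mtmr7 site untreated (0.0034) and, after LPS, at the Tgm2 region 14.2 kb inside (0.023), the gained Cd44 site (0.00082) and the smaller Mtmr7 site (0.17). Differences in LPS response between lines, none of which passed, reversed per base for Pol II at Slpi (0.46; 0.13 with a pseudocount of 10) and Cd44 (-0.24), and for H3K27ac at the gained Cd44 site (0.16), the Cd44 promoter (0.036), and the smaller (0.35) and larger Mtmr7 sites (-0.31). Without the 3 libraries called with the local filter, also chosen after seeing the data, the untreated line difference of H3K27ac at the gained Tgm2 site was -0.055. Leaving out 1 library changed the sign of line differences in Pol II at Mtmr7, with ranges of -0.37 to 0.76 untreated and -0.32 to 0.23 after LPS, and of H3K27ac at the gained Tgm2 site untreated (-0.10 to 0.38). It also did so for response differences in Pol II at Cd44 (-0.35 to 0.96) and Mtmr7 (-0.81 to 0.33), and in H3K27ac at the Tgm2 region 14.2 kb inside (-0.16 to 0.21) and the smaller Mtmr7 site (-0.55 to 0.077). A count test was not run, since whole reads could not be recovered from the tags. With 2 libraries a group, log2 differences in Pol II had SEs of 0.30 to 0.65 at the 5 regions, and the line difference of 1.45 at Slpi, with an SE of 0.30, did not pass.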
